A study of Mus musculus with 3 samples.

Results

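The SIX-family, EYA and DACH genes were examined in sorted cells of the embryonic mouse dorsal root ganglion (DRG), the sensory ganglion beside the spinal cord. The 9 genes Six2, Six4, Six5, Eya1, Eya2, Eya3, Eya4, Dach1 and Dach2 were chosen by name, matched by Ensembl identifier, and all 9 were found among the 41388 genes of the count tables. RNA was sequenced from 3 pooled libraries, called D, B and C in the labels, of cells sorted by an EGFP reporter of Ret, a receptor for GDNF family ligands, at 12.5 days post coitum. Per the labels, library D pooled 60 ganglia from 3 embryos, library B 340 ganglia from 17 embryos (10 male and 7 female) and library C 300 ganglia from 15 embryos, all taken between lower thoracic and upper sacral levels. The strain is given as C57BL/6. The genotype label reads Tg(Ret-EGFP)SJ/, a transgene, whereas the series text speaks of a knock-in at Ret; which of these holds was not settled. All libraries carry the reporter. There is one group and no treated or mutant arm, so the comparisons are between genes within a library and between pools. Total counts were 20966139 in D, 18072199 in B and 11666241 in C, of which the 9 genes took 2578 in D, 1171 in B and 678 in C.

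SIX-family proteins are homeodomain transcription factors. EYA proteins bind no DNA themselves; they join SIX-family proteins as coactivators and carry a phosphatase domain. DACH proteins are relatives of the SKI proteins and act mostly as co-repressors. The network was first described in the fly eye, and in vertebrates it is known from cranial placodes and sensory ganglia, the inner ear, kidney and skeletal muscle.

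By marker lists, the pools held neuronal and glial transcripts, with red cell and sympathetic transcripts beside them. All 10 neuron markers were detected, meaning at 1 TPM (transcripts-per-million, computed from count and gene length) or more in every library, and their summed level was 20887 TPM in D, 32187 in B and 24746 in C. All 8 glia and Schwann cell precursor markers were detected as well, with sums of 2654 TPM in D, 2678 in B and 1261 in C. Skeletal muscle markers, another tissue where the network is active, were detected for 1 of 7 genes, with sums of 23.0 TPM in D, 22.7 in B and 6.83 in C. In C, 4 of the 7 had no count, Myog among them. Erythroid markers were detected for 4 of 6 genes, with sums of 395 TPM in D, 2743 in B and 1377 in C, the last 2 above the glia sums of the same libraries. Sympathetic neuron markers were detected for 4 of 6 genes, with sums of 38.5 TPM in D, 166 in B and 57.4 in C. Mesenchyme markers were detected for 5 of 8 genes, with sums of 97.9 TPM in D, 31.8 in B and 25.2 in C. Macrophage markers were detected for 2 of 4 genes and endothelium markers for 0 of 4, with sums of at most 31.0 and 3.97 TPM. In these bulk pools, more cells of a type and more RNA per cell cannot be told apart.

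Sequence upstream of Six4, Dach1 and Eya3 is shown because these 3 members were detected in every library and had a log2 ratio above 0 in D, described further on. The sequences are from RefSeq (GRCm38.p6), 5′ to 3′ along the gene, and end where the counted exons begin, with CpG dinucleotides in capitals.
Six4, chr12:73113457-73113675, minus strand: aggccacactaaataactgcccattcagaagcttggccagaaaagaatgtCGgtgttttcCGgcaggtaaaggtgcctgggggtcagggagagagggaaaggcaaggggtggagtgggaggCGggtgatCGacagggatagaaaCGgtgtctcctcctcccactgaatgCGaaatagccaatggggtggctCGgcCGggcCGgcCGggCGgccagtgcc
Dach1, chr14:98169766-98170015, minus strand: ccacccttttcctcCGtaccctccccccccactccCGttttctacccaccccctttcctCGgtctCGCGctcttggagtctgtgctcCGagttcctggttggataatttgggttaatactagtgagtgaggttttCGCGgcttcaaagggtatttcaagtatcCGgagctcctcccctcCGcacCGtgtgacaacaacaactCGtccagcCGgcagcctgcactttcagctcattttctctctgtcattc
Eya3, chr4:132638796-132638986, plus strand: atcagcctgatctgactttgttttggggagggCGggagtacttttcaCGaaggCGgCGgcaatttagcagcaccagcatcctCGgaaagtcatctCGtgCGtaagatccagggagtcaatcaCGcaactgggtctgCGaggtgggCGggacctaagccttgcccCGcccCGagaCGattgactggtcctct
The RefSeq promoter table matched 7 of the 9 members with 10 start sites; Eya1 and Eya2 had no entry. The 250 bases before each of these starts held between 13 and 35 CpG dinucleotides, against a median of 6 over all 32851 windows of that length. Their GC content ran from 45.6% at one Dach2 start to 74% at one Eya4 start, against a median of 52.4%.

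The windows were searched on both strands for TCAGGTT, the core of the MEF3 element known to bind SIX-family proteins in muscle genes, for TGATAC, a shorter SIX-family motif, and for ACTACAA, a motif reported at sites bound by human SIX5. Over all windows, 3.49% held TCAGGTT, 4.64% TGATAC and 2.81% ACTACAA. Among the members there was 1 match in the 10 windows. With a single match no motifs overlapped. It was TCAGGTT on the strand opposite to Six4, 90 bases before the downstream of its RefSeq starts. The 30 bases around it lie inside the span counted for Six4, and the match is in capitals as read along the gene.
Six4, chr12:73113324-73113353, minus strand: ggcctgggggaAACCTGAtcggccagatcc
A match is a description of the letters and does not show a bound site.

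Eya3 had the highest level of the 9 members in each library; Eya2 came next in B and C, and Dach1 in D. Eya1 and Eya4 lay below Six4 in every library. Eya3 (ENSMUSG00000028886, chromosome 4, 132638987 to 132724765, GRCm38), the member of the family known for broad expression, stood at 20.2 TPM in D, 8.05 TPM in B and 6.70 TPM in C. D was the highest and B and C lay close together. These levels lay above those of 74.6% of 21397 protein-coding genes in D, 71.2% in B and 68.3% in C.

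Eya2 (ENSMUSG00000017897, chromosome 2, 165595032 to 165771727), an EYA coactivator known in placodes and muscle, stood at 7.62 TPM in D, 7.78 TPM in B and 4.90 TPM in C. D and B differed by less than their counting intervals of 6.53 to 8.84 and 6.76 to 8.92 TPM (95%, exact Poisson, counting error only). C was the lowest.

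Eya1 (ENSMUSG00000025932, chromosome 1, 14168954 to 14310235), needed in mouse ear and kidney development, was near the detection limit. It stood at 1.46 TPM in D, 0.82 in B and 0.98 in C, from 88 reads in D, 58 in B and 46 in C. Only D was above 1 TPM. Eya4 (ENSMUSG00000010461, chromosome 10, 23104168 to 23349895), known for its part in human hearing, had 5 reads in D, 2 in B and 3 in C. Its counting interval in D, 0.05 to 0.36 TPM, stayed below the detection limit, as did those in B and C.

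**Figure D1:**
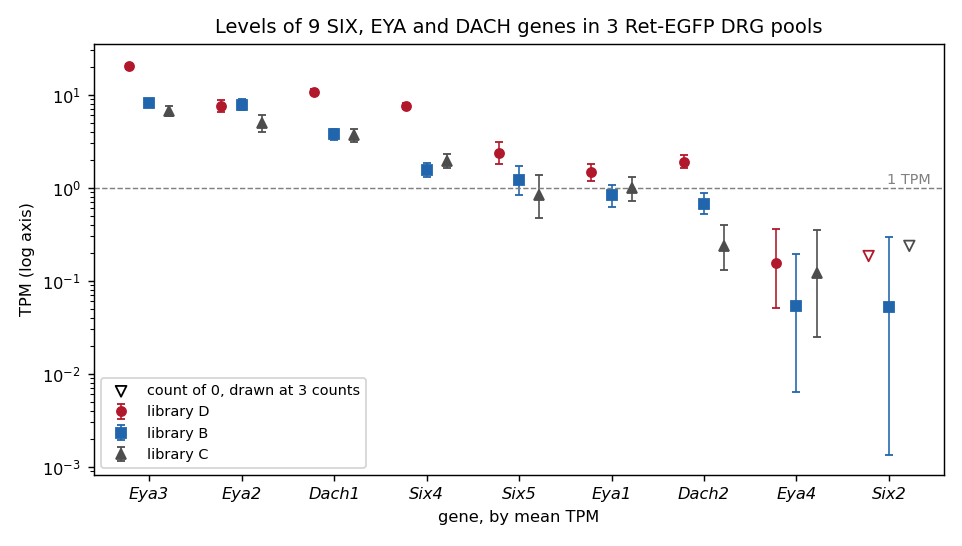
Level in TPM (log axis) of each member in libraries D, B and C, ordered by mean TPM; bars are 95% exact Poisson counting intervals and open triangles mark a count of 0 at the 3 counts it allows. Eya3, Eya2, Dach1 and Six4 lie above 1 TPM in each library, while Eya4 and Six2 lie below it.

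Both DACH genes were read in every library. Dach1 (ENSMUSG00000055639, chromosome 14, 97786853 to 98169765), the more widely expressed co-repressor of the pair, stood at 10.7 TPM in D, 3.74 TPM in B and 3.65 TPM in C. D was the highest and B and C were close to each other. Dach2 (ENSMUSG00000025592, chromosome X, 113297510 to 113836386), its relative, stood at 1.91 TPM in D, 0.67 in B and 0.24 in C, from 145 reads in D, 60 in B and 14 in C. Its counting intervals were 1.61 to 2.24 TPM in D, 0.51 to 0.87 in B and 0.13 to 0.40 in C. They cover counting error only and leave out the spread between pools. Dach1 supplied 84.9% of the family's summed TPM in D, 84.7% in B and 93.9% in C.

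Among the SIX-family genes, Six4 was the one detected in every library. Six4 (ENSMUSG00000034460, chromosome 12, 73099609 to 73113456), known in mouse sensory ganglia and muscle, stood at 7.49 TPM in D, 1.55 TPM in B and 1.94 TPM in C, from 627 reads in D, 152 in B and 126 in C. D stood apart from both other pools. Six5 (ENSMUSG00000040841, chromosome 7, 19094594 to 19098549), a neighbour of the myotonic dystrophy kinase gene, stood at 2.37 TPM in D, 1.22 in B and 0.83 in C.

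Six2 (ENSMUSG00000024134, chromosome 17, 85684277 to 85688274), which keeps kidney nephron progenitors undifferentiated, had 0 reads in D, 1 in B and 0 in C. Taking 3 reads as the limit when none is seen, its level could reach 0.18 TPM in D and 0.24 TPM in C. Of 6 genes of the nephrogenic mesenchyme, 1 was detected, Cited1 at 3.62 TPM in D, 3.86 in B and 1.62 in C, and Pax2 had 1 read in all.

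In all, 4 of the 9 members were detected, against 50.2% of protein-coding genes. No member shared exon bases with another counted gene, so an overlapping gene could not add to their counts. The counted lengths ran from 2119 bases for Six2 to 10855 for Six4. Their median of 5647 bases compares with 2894 for protein-coding genes.

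In order of mean level, Eya3 averaged 11.6 ± 7.43 TPM (SD, n = 3), Eya2 6.77 ± 1.62, Dach1 6.04 ± 4.06, Six4 3.66 ± 3.33, Six5 1.47 ± 0.80, Eya1 1.09 ± 0.33, Dach2 0.94 ± 0.87, Eya4 0.11 ± 0.05 and Six2 0.02 ± 0.03 TPM. Neighbours were compared by their log2 ratio of TPM + 0.1 within each library, as a description, since the order came from the same values. Dach1 lay above Six4 by 0.87 ± 0.35 (SD, n = 3), Six4 above Six5 by 1.02 ± 0.65 and Dach2 above Eya4 by 1.98 ± 1.22, each in 3 of 3 libraries and by more than the SD. Eya3 over Eya2, at 0.63 ± 0.69, did not differ beyond the spread between libraries, and nor did Eya2 over Dach1, Six5 over Eya1 or Eya1 over Dach2. Dach1 lay above Eya2 in D and below it in B and C. With CPM, which leaves out gene length, Eya2 over Dach1 averaged -0.97.

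EYA genes together exceeded the SIX-family and DACH genes in summed level. The 4 Eya genes summed to 29.4 TPM in D, 16.7 in B and 12.7 in C. The 2 Dach genes summed to 12.6 TPM in D, 4.42 in B and 3.88 in C, and the 3 SIX-family genes to 9.87 TPM in D, 2.82 in B and 2.77 in C. The log2 ratio of the Eya sum to the SIX-family sum was 1.58 in D, 2.57 in B and 2.20 in C, with a mean of 2.11 ± 0.50 (SD, n = 3; exact two-sided sign-flip permutation p = 0.25, the smallest that 3 libraries allow). For the Eya sum over the Dach sum it was 1.22 in D, 1.92 in B and 1.71 in C, with a mean of 1.62 ± 0.36 (exact p = 0.25). Both differences were larger than the spread between libraries. The second rests on the sums: as a mean of log2(TPM + 0.1) over each family's members, which weights Eya4 like Eya3, Eya over Dach averaged -0.045. The sums cover the 9 listed genes only; other members of these families were not analysed here.

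**Figure D2:**
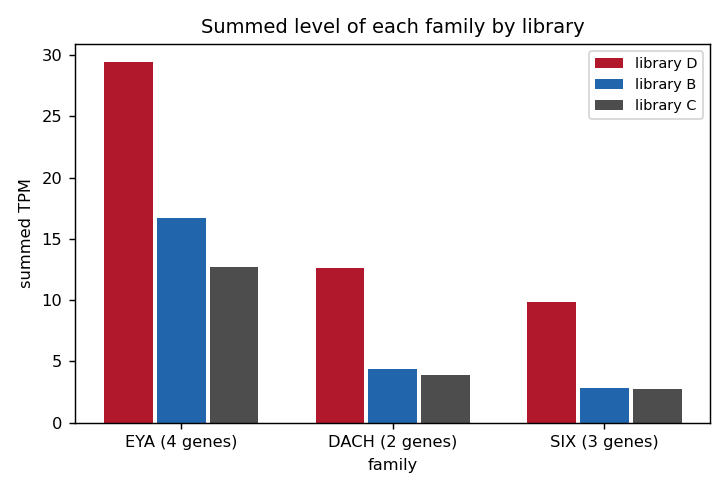
Summed TPM of the listed Eya, Dach and SIX-family genes in libraries D, B and C, 1 bar per library with no error bar. The Eya bars are the tallest in each library, and D is above B and C in each family.

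The next comparison set D, the pool from the fewest embryos, against B and C, to see how the members vary between pools. Counts were scaled by TMM (trimmed mean of M-values) and tested with edgeR over 15727 genes, of which 7 members passed the filter on low counts; Six2 and Eya4 did not. Six4 had the highest log2 ratio, 1.40 ± 0.50 (approximate SE), followed by Dach2 with 1.36 ± 0.77, Dach1 with 0.84 ± 0.48 and Eya3 with 0.75 ± 0.47. Six5 had 0.51 ± 0.78, Eya1 -0.01 ± 0.66 and Eya2 -0.43 ± 0.59. The values of Dach2 and Six5 depended on which pool D was set against: Dach2 had 2.31 without B and 0.83 without C, and Six5 0.82 without B and 0.30 without C. Eya2 had -0.05 without B and -0.69 without C. With DESeq2's size factors the ratios of Six4, Dach2, Dach1 and Eya3 were also above 0, at 1.36, 1.31, 0.79 and 0.71.

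No member passed at an adjusted p of 0.05 by edgeR's quasi-likelihood test with Benjamini-Hochberg adjustment, where 0% of all genes tested were called; the adjusted p of Six4 was 0.23. At an unadjusted p under 0.05, 1 of the 7 was called, Six4, beside 19.4% of all genes tested, or 11.2% in the direction of Six4. DESeq2 called no member either, where it called 5.89% of genes. Of the 7 members 5 had a ratio above 0, against 49.5% of genes tested, and their median was 0.75, against -0.02 over all genes tested. In D, DESeq2 gave Six5, Six2 and Eya4 no adjusted p, so it could not call them. Its share of genes called is over the 11715 that had one. With 1 residual degree of freedom, edgeR's test takes D to be as variable as B and C.

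Gene length moved with these ratios. With the genes tested split by length into 5 equal bins, the median log2 ratio in D was -0.82 in the bin of the shortest genes, up to 1736 bases, and 0.62 in the bin of the longest, from 6193 bases. Six4, Dach2, Dach1 and Eya1 belong to the longest bin. With the length trend removed, Six4 had 0.71 ± 0.54 (approximate SE), Dach2 0.68 ± 0.78, Eya3 0.22 ± 0.52 and Dach1 0.20 ± 0.53. When a joint trend of length and GC was taken out, an alternative chosen once the data had been seen, Dach1 had 0.08 and Eya3 0.16, while Six5 had 1.54 ± 0.85. Eya1, at -0.66 ± 0.72 with the length trend removed, lay below 0 under both corrections.

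**Figure D3:**
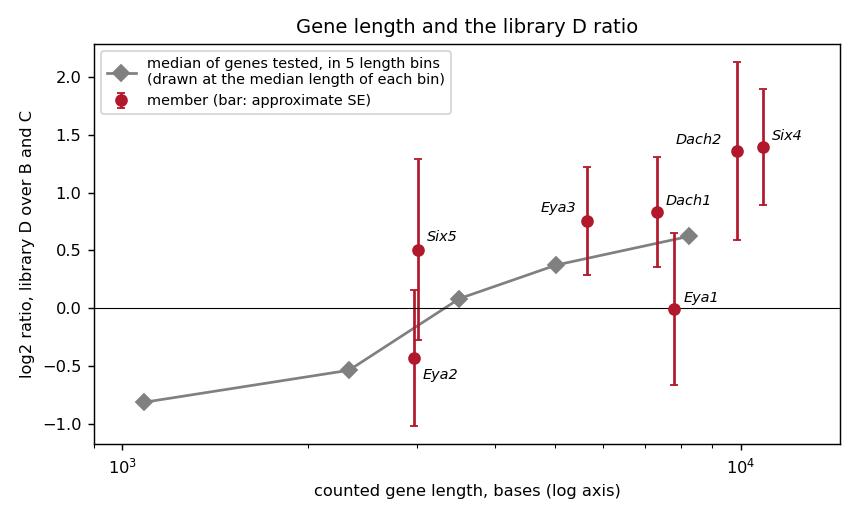
Log2 ratio of library D over B and C (edgeR, TMM) against counted gene length (log axis) for the 7 tested members, with approximate SE, and the median of all genes tested in each of 5 length bins. Six4 at 1.40 and Dach2 at 1.36 lie above the median of the longest bin, 0.62, and Eya1 at -0.01 lies below it.

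Cell type markers also moved with the pools. The farthest from 0 in D, by median, were the erythroid and the sympathetic markers. Of the erythroid markers 6 of 6 lay below 0, with a median of -3.04. Of the sympathetic markers 6 of 6 lay below 0, with a median of -2.30. Further, 6 of 8 glia markers had a ratio above 0, with a median of 0.81, and 9 of 10 neuron markers a ratio below 0, with a median of -0.64. Erbb3, a neuregulin receptor gene of Schwann cell precursors, had 3.11 ± 0.45 (approximate SE), against -0.15 ± 0.47 for Sox10, and no marker of these 4 lists passed edgeR's adjusted p. Of 5 cycling markers 4 had a ratio above 0, with a median of 0.33, while Mki67 had -1.01. The summed level of the 5 was 433 TPM in D, 206 in B and 131 in C, a different scale from the ratios. The marker ratios are those with TMM scaling, with the length trend left in. The part of these markers in the members' ratios was not tested.

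**Figure D4:**
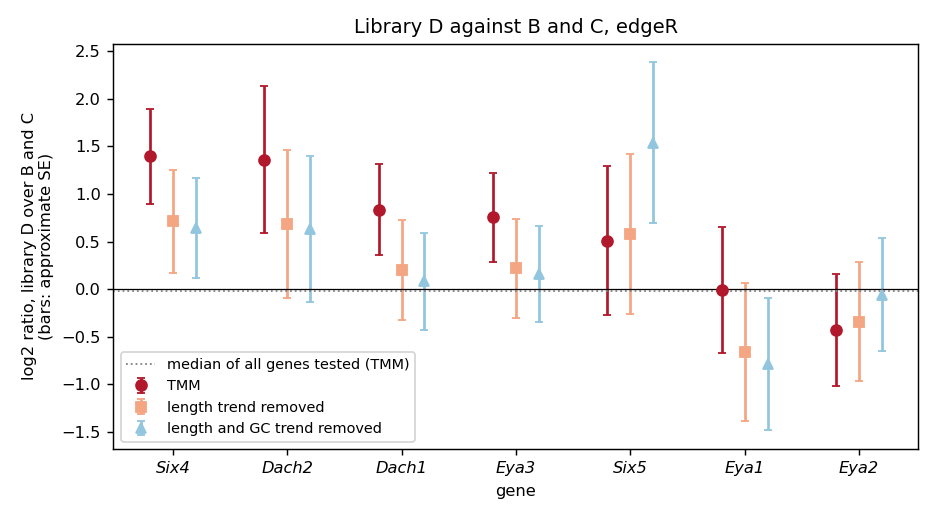
Log2 ratio of library D over B and C for the 7 tested members with TMM scaling, after removing the trend of length, and after removing that of length and GC; bars are approximate SE and the dotted line is the median of all genes tested. The ratios of Six4, Dach2, Dach1 and Eya3 are smaller after each correction, and that of Six5 rises to 1.54 with GC included.

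TPM and TMM-scaled counts gave different sizes for D. On the TPM scale the log2 ratio of D over the mean of B and C was 2.04 for Six4, 1.51 for Dach1 and 1.44 for Eya3. It was 0.26 for Eya2 and 0.64 for Eya1, both of which were below 0 with TMM. No direction is therefore given for Eya1 and Eya2 in D.

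Set against the other pools in the same way, B and C had no member called by edgeR at an adjusted p of 0.05, and none at an unadjusted p under 0.05. Among all genes tested, 0% were called in B and 0.782% in C, and at an unadjusted p 1.11% in B and 6.91% in C. DESeq2 called no member in B or C. In C, Dach2 had the lowest ratio of the members, -1.90 ± 1.18 (approximate SE; unadjusted p = 0.11), and 6 of 7 members lay below 0, against 54.6% of genes tested. DESeq2 called 0.00425% of genes in B and 1.16% in C. In B the ratios ran from -1.14 for Six4 to 0.63 for Eya2. Each library entered all 3 fits, so these values are not independent.

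Partners of the network were well represented, while Pax genes, which act upstream of or beside the network in several organs, were nearly all at background. Of 15 co-repressors and cofactors found, 14 were detected. Aes, a short relative of the Groucho co-repressors, averaged 97.0 ± 45.5 TPM (SD, n = 3), and the histone deacetylase genes Hdac3 and Hdac1 averaged 86.9 ± 23.4 and 42.5 ± 19.4 TPM. Of the 9 Pax genes none was detected in every library. Pax3, a gene of neural crest and muscle progenitors, was the highest, at 4.09 TPM in D, 3.44 in B and 0.78 in C. Pax9, whose exons overlap those of another gene, and Pax6 followed with means of 0.11 and 0.07 TPM, and Pax5 had no reads.

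Skil, which encodes the SKI relative SnoN, stood at 73.4 TPM in D, 6.04 TPM in B and 7.16 TPM in C. D was far above both others, and the log2 ratio was 2.77 ± 0.43 (approximate SE, edgeR), with the length trend left in. At 9694 bases Skil belongs to the longest bin, whose median ratio was 0.62. Ski itself stood at 15.6 TPM in D, 9.93 in B and 10.2 in C. Of the 15 cofactors tested in D, 7 lay above 0 and 8 below, and the median was -0.07, against -0.02 over all genes tested.

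Genes known as SIX-family and EYA targets in other tissues were detected for 10 of 20. Isl1, a LIM homeodomain gene of sensory neurons, averaged 591 ± 56.9 TPM (SD, n = 3), Cdk1, a cell cycle kinase gene, 103 ± 49.1 TPM and Neurod1 91.0 ± 59.0 TPM; exons of Neurod1 overlap those of other genes. The muscle targets Myod1, Myog and Myf5 and the kidney targets Gdnf, Sall1 and Osr1 were not detected in every library. Some passed 1 TPM in part of them: Myf5 at 4.24 TPM in D, and Myog at 2.52 in D and 1.63 in B. Gdnf stood at 2.33 TPM in D and 1.17 in B, and Osr1 at 2.82 in C. Myod1 and Sall1 stayed below 1 TPM. Of the 16 tested in D, 9 lay above 0 and 7 below, and the median was 0.19, against -0.02 over all genes tested. The ratios ran from -2.16 for Osr1 to 4.75 for Myf5, both low in count. Slc12a2, a chloride cotransporter gene known as a target in mouse, had 1.34 ± 0.48 (approximate SE, edgeR). Its length of 6520 bases places it in the longest bin, and the length trend was left in.

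All 6 genes found for partners of EYA phosphatases in DNA damage signalling were detected. Apbb1, whose product FE65 acts with EYA proteins on the histone H2AX, averaged 142 ± 5.16 TPM (SD, n = 3), and Mapk8, a JNK kinase gene, 17.2 ± 7.83 TPM. H2afx, the gene of H2AX, stood at 16.4 TPM in D, 15.1 TPM in B and 166 TPM in C. C stood far above the others, and H2afx was called higher in C, with a log2 ratio of 3.79 ± 0.88 (approximate SE; edgeR adjusted p = 0.0068), beside 0.757% of genes called higher in C. The spread behind that p comes from D and B alone, since C is a single library taken to vary like them. That spread is shared over genes, so it is not a measure of how close H2afx itself was in D and B.

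The protein-coding genes nearest to the 3 highest members were found by Euclidean distance in log2(TPM + 0.1) over the 3 libraries, a description of level only, from few libraries. For Eya3 they were Nudt7 at a distance of 0.04, Synpr at 0.09 and Mob1a at 0.10. For Eya2 they were Nceh1 at 0.07, Wdr60 at 0.12 and Prox2 at 0.13, and for Dach1 they were Celsr2 at 0.04, Slc9a8 at 0.07 and Mon2 at 0.10.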

How the data were processed

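RNA sequencing of 3 pooled libraries was analysed. For each, the authors deposited raw read counts per Ensembl gene, and per the file headers also CPM, RPKM, exon positions and gene length. In the deposited tables CPM is the count over the file total, and the deposited RPKM is that CPM per kilobase. Per the submitters' processing notes the tools were Subread and featureCounts 1.4.5 and the build GRCm38.p2, with roles unstated. Strand setting and read filters: not given in the sources used here; the kit in the labels' protocols does not mark strand.

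The deposited counts were used throughout. TPM was computed from count and length over all genes. Symbols came from a GENCODE M21 table. Each library was tested against the others with edgeR 4.0.16 (TMM, filterByExpr, quasi-likelihood test, Benjamini-Hochberg over all genes); standard errors are approximate, from the ratio and its F statistic. Alternatives used DESeq2 1.42.0, other scalings and filters, left-out libraries, and trends of length and GC removed with mgcv 1.9.3. The procedure was also run on simulated counts, with a single spread for all genes and no length trend. That setting differs from these pools, so it does not show how the tests behave on them. The libraries are separate pools; the chi-square per degree of freedom between pairs was 133 to 318, so none was taken as a duplicate. P-values of the fits rest on the spread between the pools other than the lone one, shared over genes. The lone pool is taken to vary like them. Counting limits cover counting error only, since amplified reads carry no molecular identifiers.

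The members, lists and naming rule were chosen with earlier results of these data known. The rule names each member, the 3 genes with the highest mean TPM of each partner list, genes a sentence on a member turns on, and the 3 nearest genes of the 3 highest members. Skil, Ski, Slc12a2, Erbb3, Sox10, Mki67 and genes listed as not detected were named after their values were seen.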

Additional observations from a re-analysis of the deposited data

How the results depend on the processing

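Of 136 alternative values for 21 results, 112 were counted as kept. These kept their direction and their side of the threshold, or moved by less than the spread, or, for counts, stayed within 1.5 times. This tally does not measure stability of size. Six4 at 0.64 and Dach1 at 0.08 in D, with length and GC taken out, were counted as kept because their sign held. So was Eya2 over Dach1 at -0.036 without B, a change of sign within the spread. No alternative called any member in D, B or C. Over all genes, edgeR called 0 in D, against 1534 with no filter, 8 with DESeq2's size factors, 6 with the length trend removed and 690 by DESeq2. In B it called 0, against 1 by DESeq2, and in C 123, against 280 with the length trend removed and 207 with length and GC. In place of 4 members, 6 were detected at a limit of 0.5 TPM, 1 at 5 TPM, and 5 without C. The Eya over SIX-family log2 ratio, 2.11, was 1.33 with CPM, 1.36 as a mean of log2(TPM + 0.1) and 0.82 as a mean of log2(TPM + 1). The Eya over Dach ratio, 1.62, was 0.94, -0.045 and 0.14 under the same settings; the means of logs weight each member alike, so the low Eya4 pulls them down. With CPM, 5 in place of 3 neighbouring pairs differed beyond their spread, counted in either direction, since CPM leaves out length. The order was reversed for Eya2 over Dach1, at -0.97, and Six5 over Eya1, at -0.99. Dach1 over Six4 fell to 0.33. In D, Eya2 turned from -0.43 to 0.26 with TPM. Eya1, -0.01, turned to 0.041 with no filter, 0.64 with TPM and 0.23 with CPM, and with B or C left out it was -0.11 and 0.16. The cause was not tested. Left-out libraries in the D comparison leave no residual degree of freedom, so those ratios carry no test. Depth limits Six2 and Eya4, with 1 and 10 reads in all. TPM over protein-coding genes detected the same number of members. The length and GC trend, and the TPM and CPM ratios of D, were added after seeing the data.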
